A study of Rattus norvegicus with 125 samples.

Results

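A set of 10 genes of the stretch and stress response of striated muscle was followed in rat heart after inhalation of phosphine: Klhl40, Ankrd2, Myl1, Csrp3, Fhl1, Xirp1, Flnc, Pdlim3, Lmcd1 and Ankrd1. They were chosen by their rises in phosphine-exposed heart 6 h after exposure, so the 6 h heart values are a description and carry no test. That choice had no numerical threshold, and the member with the smallest rise, Ankrd1, changed by 0.20 on the log2 scale. The genes are 10 of 13438 with a symbol of their own on the array, and 14 of 31139 probe sets carry their symbols. Per gene and tissue the probe set with the highest mean was used.

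Adult male Sprague-Dawley rats inhaled phosphine (PH3) by whole-body exposure, with 387 ppm over 40 min (15480 ppm×min), or air (0 ppm over 40 min). Affymetrix arrays measured RNA of frozen, powdered tissue on 125 arrays from 48 rats, of which 29 arrays from 29 rats were of heart. The heart groups were Air and PH3 at 1, 3, 6 and 24 h after exposure, with 4 rats each, except for 2 Air and 3 PH3 rats at 24 h. As reference served brain and kidney at the same times with 4 rats a group, and liver at 6 h with 4 a group. Liver of 3 PH3 rats at 3 h, a time without Air livers, entered the liver fit but no comparison. Lung was taken at 3 h (2 Air and 4 PH3 rats), 24 h (4 each) and 1 week (4 Air and 3 PH3 rats). The rats carried no transgene per the labels, and each array stands for 1 rat. In tissue powder, more cells of a type and more RNA per cell cannot be told apart. Levels are log2 signals ± SD, and changes are PH3 minus Air on the log2 scale ± the standard error of the limma fit.

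In striated muscle the Z-disc anchors the thin filaments of neighbouring sarcomeres and, with titin, senses mechanical load. Proteins of the Z-disc and the I-band, many of them with LIM domains or ankyrin repeats, shuttle between the sarcomere and the nucleus and are known as early responders to stretch, overload and injury. Ankrd1 and Ankrd2 bind titin in the I-band. Csrp3 (muscle LIM protein), Pdlim3 and filamin C (Flnc) sit at the Z-disc, and Xirp1 (Xin) binds actin at the intercalated disc and at sites of sarcomere damage. Fhl1 binds titin and signalling kinases, and Lmcd1 is a LIM protein linked to calcineurin signalling. Klhl40 is a kelch protein that stabilises thin filament proteins in skeletal muscle, and Myl1 is an essential myosin light chain of fast skeletal muscle.

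The heart arrays had medians of 5.08 to 5.27 and maxima of 13.86 to 14.05. Arrays of 1 group correlated on average at 0.974 to 0.992, with the lowest value on PH3 rat 141 at 6 h. Mean levels of ventricular cardiomyocyte markers were 13.16 to 13.24 in PH3 and 13.19 to 13.28 in Air at 6 h, near the top of the arrays' scale. The mean of 5 atrial markers was low on 2 Air hearts, 9.23 on rat 96 at 1 h and 10.12 on rat 126 at 6 h, against 11.53 to 12.05 on the other Air hearts at 1 h and 11.46 to 11.85 at 6 h. Member changes at 6 h are given with and without PH3 rat 141, and the Myl1 and atrial values also without these 2 Air hearts. Nothing in the labels says how the heart was cut.

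In Air rats, heart had the highest median of the 5 tissues for 9 of the 10 genes. Levels between tissues are set side by side for 1 probe set at a time, and whether the authors normalised all tissues in 1 run is not given in the sources used here. Csrp3 was at 12.40 in heart (range 12.27 to 12.54), 6.80 in lung (6.33 to 7.99), 3.70 in liver, 3.58 in kidney and 3.53 in brain. Ankrd1 was at 12.96 in heart (12.86 to 13.14), 8.65 in lung (6.61 to 9.10), 4.49 in kidney, 3.78 in liver and 3.51 in brain. For both genes heart lay clear of all other tissues, and lung stood above the remaining tissues.

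Xirp1 was at 8.36 in heart (7.75 to 8.77), and its medians in the other tissues, 3.65 to 3.79, lay together. Flnc was at 9.88 in heart (9.67 to 10.35), 6.46 in lung, 5.22 in brain, 4.15 in liver and 4.02 in kidney, where lung overlapped brain and liver overlapped kidney. Klhl40 was at 7.06 in heart (6.68 to 8.02) and at 4.39 to 4.82 elsewhere, without order among those tissues. These 3 genes were also clear of every other tissue in heart.

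Pdlim3 was at 9.93 in heart (9.77 to 10.54) and 9.34 in lung (9.04 to 9.89), ranges that overlap, and at 5.33 in brain, 4.50 in kidney and 4.23 in liver. Lmcd1 was at 9.69 in heart (9.33 to 9.98) and 9.28 in lung (8.91 to 9.92), which overlap, then 7.83 in kidney, 6.10 in brain and 5.76 in liver. Fhl1 was the exception, with 12.20 in lung (11.95 to 12.49) above 11.52 in heart (11.39 to 11.85), followed by 9.85 in brain, 9.47 in kidney and 6.30 in liver. The ranges of brain, kidney and liver overlapped for Pdlim3, those of brain and liver for Lmcd1, and those of brain and kidney for Fhl1. Heart and lung were the highest tissues for these 3 LIM genes.

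Myl1 was at 6.41 in heart (5.24 to 7.51) and at 3.66 to 3.88 in the other tissues, apart from 1 Air liver at 6.19. Ankrd2, which in muscle is a gene of slow skeletal fibres, was near the array background in all tissues of Air rats. Its heart median of 4.35 (4.14 to 4.72) overlapped kidney at 4.31, liver at 4.27, lung at 4.12 and brain at 3.88. The lower quartile of all probe sets on the heart arrays was 3.88 to 4.01.

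At 6 h after exposure all 10 genes were higher in PH3 heart, and for each of them the 4 PH3 arrays lay above the 4 Air arrays. The changes ran from 0.20 for Ankrd1 to 3.00 for Klhl40 (2.86 for Ankrd2), with a median of 1.25 against -0.01 over all genes. All 10 passed an adjusted p of 0.05 in limma, where 2.7% of all genes passed in either direction and 1.41% passed as higher. Over all genes, 4.76% had every PH3 array above every Air array at 6 h. The genes were picked for this contrast, so nothing is read from these counts. The same holds below where PH3 arrays are set against all 25 other hearts, a pattern whose share over all genes was not counted.

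**Figure D1:**
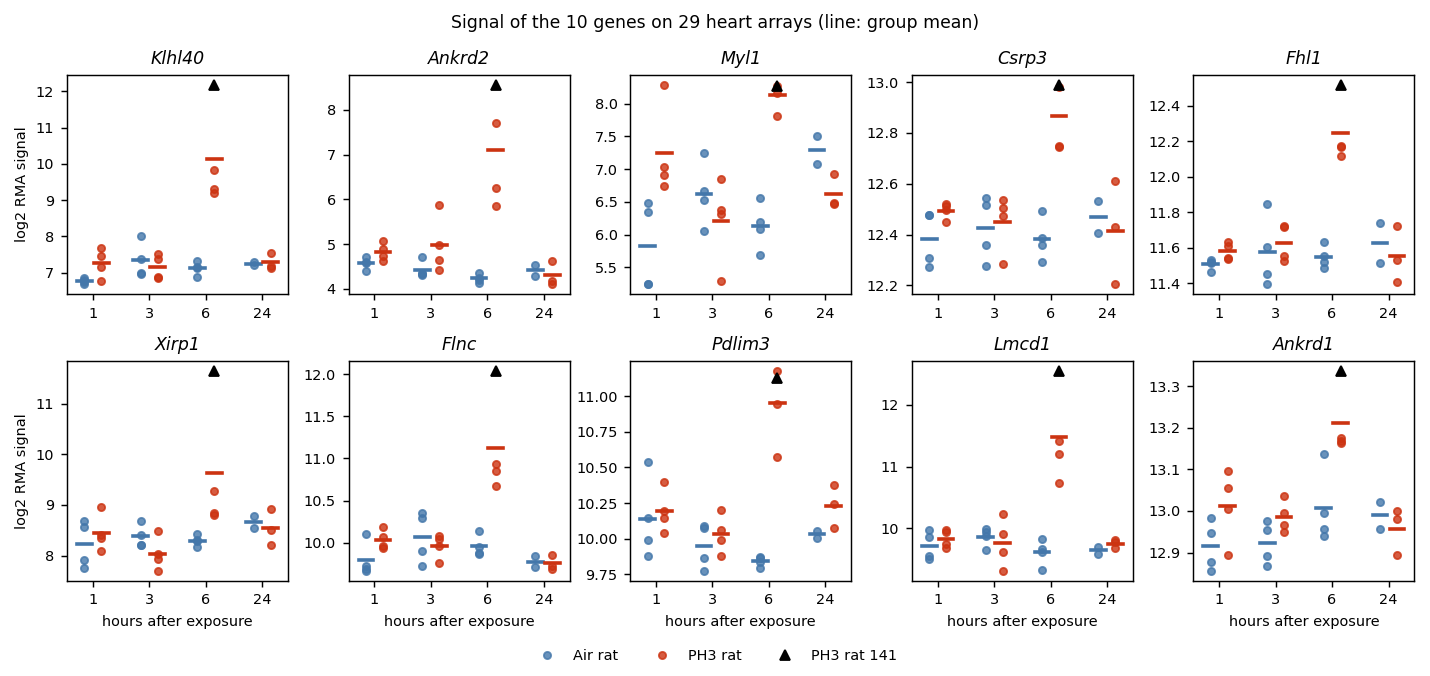
Log2 RMA signal (y axis) of each of the 10 genes on the 29 heart arrays by hours after exposure (x axis). Points are rats, lines are group means, blue is Air, red is PH3, and the black triangle is PH3 rat 141. The 4 PH3 arrays at 6 h lie above the 4 Air arrays of 6 h in every panel, and rat 141 is the highest of them in 8 of the 10 panels. The y axes differ between panels and do not start at 0.

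Klhl40 and Ankrd2 had the largest changes, in an order that turned without rat 141. The signal of Klhl40 on the PH3 arrays at 6 h was 9.82, 9.20, 9.30 and 12.18 (rats 128, 134, 140 and 141), and on the Air arrays 7.15, 6.89, 7.12 and 7.33 (rats 126, 132, 138 and 156). The lowest PH3 array stood above all 25 other heart arrays of the study, whose highest was 8.02. The mean rose from 7.12 ± 0.18 to 10.13 ± 1.40 (n = 4 each), a change of 3.00 ± 0.38 or 8.02-fold, and 2.32 without rat 141 (4.98-fold).

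Ankrd2, an ankyrin repeat protein of the titin I-band that also occurs in the nucleus, read 6.25, 7.71, 5.84 and 8.57 on the PH3 arrays and 4.14, 4.24, 4.35 and 4.21 on the Air arrays. The gene thus went from a level that overlapped the non-muscle tissues to one above every array of the other tissues. Of the 4 PH3 arrays, 3 stood above all other hearts, and the fourth was just under PH3 rat 122 at 3 h, at 5.88. The change was 2.86 ± 0.36 (7.25-fold), and 2.37 without rat 141.

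Its relative Ankrd1, a cardiac ankyrin repeat protein known for strong induction under load, moved least, from 13.01 ± 0.09 to 13.21 ± 0.08. The PH3 arrays read 13.18, 13.16, 13.17 and 13.34, and the Air arrays 12.94, 13.14, 12.96 and 12.99. These signals lie close to the top of the arrays' scale, at 13.86 to 14.05. The lowest PH3 array, 13.16, was just above the highest of the 25 other hearts, 13.14. The change of 0.20 ± 0.05 (1.15-fold) was 0.16 without rat 141, with limma's adjusted p at 0.183. A second probe set of Ankrd1, with a lower mean of 12.47, gave 0.37 ± 0.08 with all PH3 arrays above all Air arrays. With arrays of 1 rat as a replicate block in a fit of all tissues, the change was 0.20 at an adjusted p of 0.919 by limma. That fit also pooled the spread over tissues, and the SD of Ankrd1 was 1.00 in Air lungs against 0.07 in Air hearts.

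Lmcd1, a LIM and cysteine-rich protein, read 10.74, 11.41, 11.20 and 12.55 in PH3 and 9.82, 9.33, 9.67 and 9.62 in Air. Every PH3 array was above all 25 other hearts. The change was 1.86 ± 0.23 (3.63-fold), and 1.50 without rat 141.

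RefSeq windows of 250 bases before a transcription start (assembly GRCr8) were matched for 7 of the 10 genes, with Ankrd1, Csrp3 and Pdlim3 unmatched. The windows of Klhl40, Ankrd2 and Lmcd1 are shown because these genes had the largest changes among members with 1 annotated start. They lie just upstream of the genes and end at the base before the start. Capitals mark every match, on either strand, to the MCAT motif CATTCC, the GATA motif AGATAA, the E-box CANNTG, the CArG box or the MEF2 box.
Klhl40, chr8:130318543-130318792, plus strand: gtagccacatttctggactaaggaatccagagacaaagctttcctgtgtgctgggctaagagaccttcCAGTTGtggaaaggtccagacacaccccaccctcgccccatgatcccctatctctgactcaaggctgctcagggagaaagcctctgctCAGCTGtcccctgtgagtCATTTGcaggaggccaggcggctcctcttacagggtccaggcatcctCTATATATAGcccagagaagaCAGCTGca
Ankrd2, chr1:250796169-250796418, plus strand: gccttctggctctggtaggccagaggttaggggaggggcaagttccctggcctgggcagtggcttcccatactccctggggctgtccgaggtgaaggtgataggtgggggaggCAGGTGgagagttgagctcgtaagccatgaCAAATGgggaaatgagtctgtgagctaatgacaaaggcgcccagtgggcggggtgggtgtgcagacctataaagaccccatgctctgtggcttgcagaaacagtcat
Lmcd1, chr4:146948743-146948992, plus strand: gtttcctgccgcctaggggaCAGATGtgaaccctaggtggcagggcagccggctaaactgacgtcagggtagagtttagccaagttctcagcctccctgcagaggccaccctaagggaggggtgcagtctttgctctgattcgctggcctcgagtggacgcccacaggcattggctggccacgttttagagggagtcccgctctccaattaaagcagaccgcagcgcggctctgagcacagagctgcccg
The Klhl40 window held 4 E-boxes and, at -29 to -20 from the start, a MEF2 box match whose alternating letters also resemble a TATA box, a motif that was not searched. The Ankrd2 window held 2 E-boxes and the Lmcd1 window 1. An E-box was found in 6 of the 7 genes and in 65.5% of 33469 rat windows of the same length. A MEF2 box occurred in 3 of the 7 genes, Klhl40, Xirp1 and Myl1, and in 2.96% of all windows. MCAT (12.1% of windows), GATA (10.3%) and CArG (1.5%) were each matched in 1 of the 7 genes, namely Flnc, Xirp1 and Fhl1. Genes with several annotated starts have several windows, which raises their chance of a match, and a match describes letters only.

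Among the Z-disc proteins, Flnc, the muscle filamin that crosslinks actin, read 10.68, 10.93, 10.86 and 12.04 in PH3 and 10.14, 9.88, 9.95 and 9.87 in Air. Its change was 1.17 ± 0.18 (2.24-fold), and 0.86 without rat 141. A second probe set, at a mean of 5.21, gave 1.26 ± 0.28. Pdlim3, a PDZ and LIM protein that binds alpha-actinin, read 10.95, 11.18, 10.57 and 11.13 against 9.79, 9.87, 9.86 and 9.83, a change of 1.12 ± 0.12 (2.17-fold). Rat 141 was not the highest here, and the change without it was 1.06.

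Csrp3, the muscle LIM protein and one of the most heart-restricted genes of the set, read 12.75, 12.74, 12.98 and 12.99 in PH3 and 12.49, 12.36, 12.39 and 12.29 in Air. The change was 0.48 ± 0.08 (1.40-fold), and 0.44 without rat 141. In the fit of all tissues with the rat as a replicate block it was 0.48 at an adjusted p of 0.293 by limma, so the call was lost there. That fit also pooled the spread over tissues, and the SD of Csrp3 was 0.56 in Air lungs against 0.10 in Air hearts. All 4 PH3 arrays of Flnc, Pdlim3 and Csrp3 stood above the 25 other hearts, a pattern not counted over all genes.

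Xirp1 was the member that rested most on 1 animal. The PH3 arrays read 8.85, 8.80, 9.27 and 11.64, and the Air arrays 8.42, 8.16, 8.30 and 8.30. The change was 1.34 ± 0.37 (2.53-fold) with rat 141 and 0.67 without it (1.59-fold), where limma's adjusted p was 0.161. On 2 PH3 arrays the signal was within the range of the other hearts, which reached 8.96.

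Fhl1, a four-and-a-half LIM protein, read 12.17, 12.18, 12.11 and 12.52 in PH3 and 11.52, 11.55, 11.63 and 11.48 in Air, a change of 0.70 ± 0.09 (1.62-fold) and 0.60 without rat 141. Its other probe sets disagreed in size. One at a mean of 6.90 changed by 2.36 ± 0.36 with no overlap, and one near background, at 3.41, by 0.21 ± 0.17 with overlap. All 4 PH3 arrays of the main probe set were above the other 25 hearts, whose highest was 11.85.

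For Myl1, as for Pdlim3 and Csrp3, rat 141 lay close to another PH3 heart. The Myl1 PH3 arrays read 8.27, 8.16, 7.80 and 8.27, and the Air arrays 5.69, 6.19, 6.09 and 6.56, a change of 1.99 ± 0.34 (3.99-fold) and 1.95 without rat 141. None of the 4 PH3 arrays stood above all other hearts, since PH3 rat 115 at 1 h read 8.29.

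Rat 141 was the highest PH3 heart in 8 of the 10 genes, with a median distance from the Air mean of 2.11, against 0.91 in rat 128, 1.15 in rat 134 and 0.93 in rat 140. Without it, 8 of the 10 genes passed, Xirp1 and Ankrd1 being the exceptions, and the share of all genes that passed fell to 0.997%. The other 3 PH3 rats were above the Air range for every gene.

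**Figure D2:**
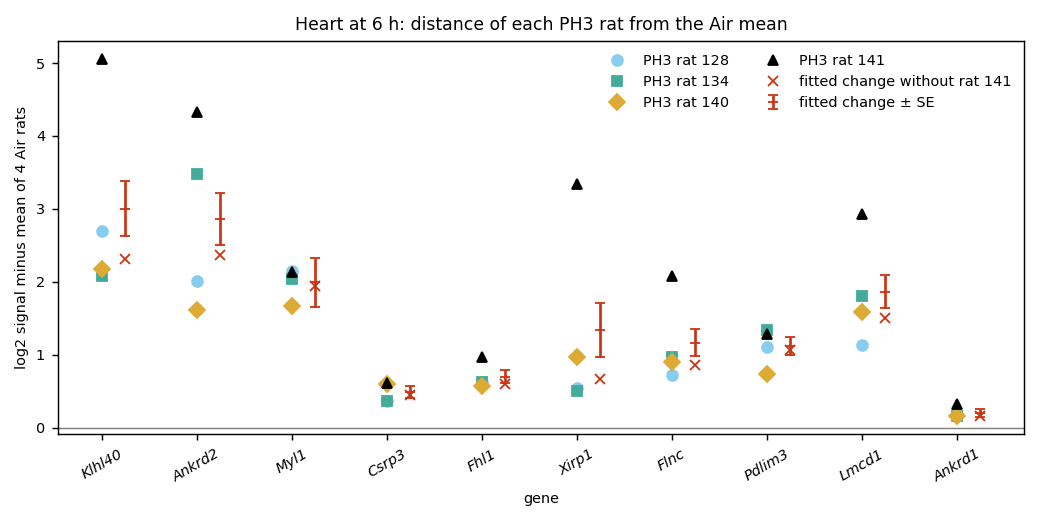
Log2 signal of each PH3 heart at 6 h minus the mean of the 4 Air hearts (y axis) for each gene (x axis), with 1 symbol per rat. The red bar is the fitted change ± SE with all 4 PH3 rats and the red cross the fitted change without rat 141. Rat 141 lies far above the others for Klhl40, Xirp1, Flnc and Lmcd1, and the cross for Xirp1 lies at 0.67 against 1.34.

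At 1, 3 and 24 h, which did not enter the choice of genes, 0 of the 10 genes passed. By limma over all genes, 0.0521% passed at 1 h, 0.238% at 3 h and 0% at 24 h, so the absence of calls is what most genes showed. Over these 30 values, 1 had an unadjusted p under 0.05, that of Myl1 at 1 h, against 7.96% of the values over all genes. The median change of the 10 genes was 0.17 at 1 h, -0.03 at 3 h and -0.04 at 24 h, against -0.02, -0.03 and -0.02 over all genes. Of the 10 changes, 10 were above 0 at 1 h, 5 at 3 h and 3 at 24 h, where 45.5%, 43% and 44.7% of all genes were above 0. Without Air rats 96 and 126, Pdlim3 was at -0.03 at 1 h.

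At 1 h, Myl1 read 7.04, 6.74, 8.29 and 6.90 in PH3 (rats 98, 109, 115 and 116) and 5.25, 6.35, 6.48 and 5.24 in Air (rats 96, 107, 163 and 168). The groups did not overlap, and the spread within each was wide. The change was 1.41 ± 0.34 (2.66-fold), with limma's adjusted p at 0.155. Klhl40 read 7.69, 6.78, 7.17 and 7.46 against 6.85, 6.68, 6.79 and 6.75, a change of 0.51 ± 0.38 (adjusted p = 0.755 by limma). The PH3 range of Klhl40 reached down into the Air range. Fhl1, at 11.58 ± 0.05 against 11.51 ± 0.03, was the other gene whose PH3 arrays all lay above the Air arrays, a pattern shown by 1.9% of all genes at this time. The remaining 7 changes were between 0.05 and 0.25.

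At 3 h the changes lay between -0.42 (Myl1) and 0.56 (Ankrd2), and the groups overlapped for all 10 genes. Ankrd2 read 4.99, 4.64, 5.88 and 4.43 in PH3 and 4.36, 4.34, 4.31 and 4.71 in Air, so its change of 0.56 ± 0.36 (adjusted p = 0.545 by limma) came mainly from rat 122. Klhl40 was at 7.15 ± 0.34 in PH3 and 7.34 ± 0.49 in Air. Lmcd1 was at 9.77 ± 0.39 in PH3 and 9.86 ± 0.15 in Air.

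At 24 h Klhl40 read 7.54, 7.12 and 7.20 in PH3 and 7.21 and 7.29 in Air, close to the Air level at all times. Ankrd2 read 4.62, 4.19 and 4.10 against 4.54 and 4.29. Lmcd1 read 9.81, 9.77 and 9.68 against 9.59 and 9.70. For these 3 genes, which had large changes at 6 h, the 24 h groups overlapped. Myl1 itself read 6.92, 6.46 and 6.48 in PH3 and 7.08 and 7.51 in Air, a change of -0.67 ± 0.43 with no overlap (adjusted p = 1.00 by limma). With 3 against 2 arrays, 12.5% of all genes had every PH3 array below every Air array, and 8.91% had every one above, as Pdlim3 did (0.20 ± 0.16).

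The differences between the PH3 effects of 1, 3 and 24 h were put to an F test. By limma 0 of the 10 genes passed, and 0% of all genes did. Myl1 had the smallest unadjusted p of the 10 (0.000466, adjusted p = 0.499) and the only one under 0.05.

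Myl1 varied among Air hearts more than the other genes, with group means from 5.83 at 1 h to 7.29 at 24 h, whereas those of Ankrd1 and Csrp3 spanned 0.09 on the log2 scale each. At 1 h, the change of 5 of 5 atrial markers was above 0, with a median of 0.89 and 0 passing. Without Air rats 96 and 126 the median was 0.07, and the change of Myl1 was 1.22 ± 0.35 (adjusted p = 0.461 by limma). Over the 29 heart arrays Myl1 and the mean of the atrial markers correlated at r = 0.39, at 0.51 over the 21 arrays of other times than 6 h, and at 0.08 over the 27 arrays without Air rats 96 and 126. At 6 h the atrial median change was 0.27 with 0 of 5 passing, and -0.03 without the 2 hearts. Without them 8 of the 10 genes passed at 6 h, where 1.23% of all genes passed, in the contrast that picked the genes. Xirp1 (adjusted p = 0.0898) and Ankrd1 (adjusted p = 0.117) did not pass, both by limma. The part of atrial tissue in the Myl1 values was not tested.

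Since Myl1 and Klhl40 are best known from skeletal muscle, markers of that tissue were read on the same arrays. Of 14 listed, 10 were measured, and 0 of 10 passed at 6 h, with a median change of 0.06. Their mean level was 4.78 to 5.07 in PH3 and 4.67 to 5.11 in Air at 6 h, and their log2 summed signal 9.70 to 10.06 and 9.67 to 10.68. Myh1, Myh2, Myh4 and Mylpf carry no symbol of their own here. At 6 h the skeletal marker levels overlapped between the groups. Over the 29 heart arrays Casq1 had a median of 9.54 and the other measured markers 3.68 to 5.58, so Casq1 carried most of the summed signal. The part of skeletal muscle in the rises of Klhl40, Ankrd2 and Myl1 was not tested. Of 9 ventricular markers 0 passed (median 0.01), and of 7 smooth muscle markers 0 passed (median -0.16). Of 7 macrophage and neutrophil markers 1 was higher at 6 h, where 1.41% of all genes passed as higher. It was C1qb, a complement component of macrophages, at 0.56 ± 0.15 (adjusted p = 0.0397 by limma, and 0.137 without rat 141). For fibroblast, endothelial, hepatocyte and adipocyte markers 0 passed at 6 h, with median changes between 0.06 and 0.25.

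Other genes of the sarcomere and its upkeep were counted over 5 lists, which hold none of the 10. Over all genes, 2.7% passed at 6 h in either direction and 1.41% passed as higher. Of 21 further Z-disc and stretch-sensing genes, 1 rose at 6 h and 0 fell, with a list median of 0.03 against -0.01 over all genes. The one was Ankrd23, the remaining member of the muscle ankyrin repeat family, which went from 7.15 ± 0.29 to 8.49 ± 0.33 (n = 4 each), a change of 1.35 ± 0.34 (adjusted p = 0.0275 by limma, and 0.107 without rat 141). All 3 genes of that family were above the Air range in every PH3 heart at 6 h. Ankrd1 and Ankrd2 were picked for this contrast, so nothing is read from this about the family. Ldb3, Actn2 and Myoz2, structural genes of the Z-disc named here after their values were seen, changed by 0.01, -0.06 and 0.02. Over all 21 genes of this list the changes ran from -0.57 to 1.35. For 3 of the 21 every PH3 array lay above every Air array, as for 4.76% of all genes.

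Of 19 genes of muscle protein quality control and turnover, 3 rose and 3 fell at 6 h, where 2.7% of all genes passed in either direction. The small heat shock protein Hspb1 rose from 11.55 ± 0.08 to 12.65 ± 0.29, a change of 1.10 ± 0.12. Klhl41, a kelch protein closely related to Klhl40, and Smyd1, a methyltransferase of myosin assembly, rose by 0.49 ± 0.12 and 0.71 ± 0.18, and both are named after their values were seen. The kelch genes Klhl38 and Klhl31 fell by 1.76 ± 0.33 and 0.69 ± 0.09, so kelch genes of muscle went both ways. Trim63, the ubiquitin ligase MuRF1, fell by 0.58 ± 0.11. Limma's adjusted p was 2.76e-06 for Hspb1, 0.0246 for Klhl41, 0.0303 for Smyd1, 0.00237 for Klhl38, 5.24e-05 for Klhl31 and 0.00204 for Trim63. Without rat 141 the change of Klhl38 was -1.21 and the adjusted p 0.00276.

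Of 18 thick and thin filament genes 0 passed at 6 h (median 0.01), and of 17 costamere and integrin genes 0 passed (median 0.04). With all arrays the largest changes there were those of the atrial genes Myl4 and Mybphl, 0.56 each with overlap, and of the costamere gene Dmd (0.50 ± 0.30). Without Air rats 96 and 126, the values of Myl4 and Mybphl were 0.21 and -0.03. Of 22 transcription regulators linked to muscle or stretch 1 rose, Rcan1, a calcineurin inhibitor that calcineurin signalling induces, from 10.06 ± 0.16 to 11.06 ± 0.28. Its change was 1.00 ± 0.17 (adjusted p = 0.000948 by limma), and 0.86 without rat 141. At 1, 3 and 24 h, 0 genes of the 5 lists passed. Over the 5 lists 8 of 97 genes passed at 6 h, where 2.7% of all genes passed in either direction and 1.41% as higher. Without rat 141, 5 did, where 0.997% of all genes passed. Without Air rat 138, 5 did too.

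**Figure D3:**
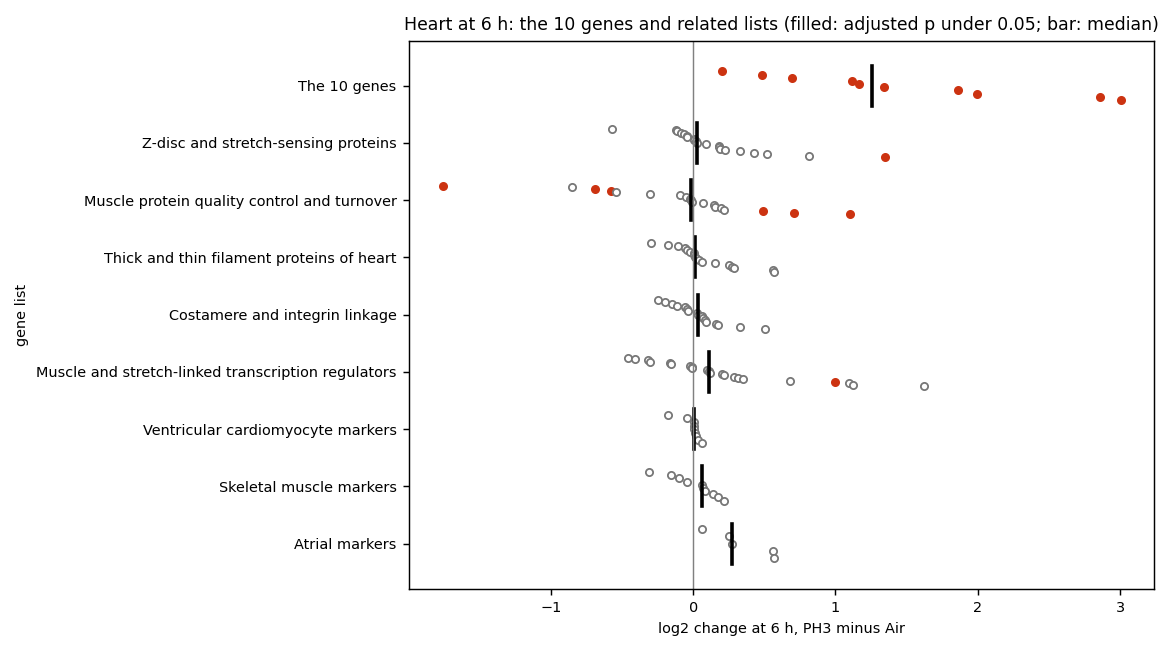
Log2 change, PH3 minus Air, in heart at 6 h (x axis) of the 10 genes and of the genes of 8 related lists (y axis). Filled points passed an adjusted p of 0.05 in limma, open points did not, and black bars are medians. The median of the 10 genes, which were picked for this contrast, is 1.25, and those of the other lists lie between -0.02 and 0.27.

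The 10 genes varied together across the 29 heart arrays, with a median pairwise r of 0.76 over 45 pairs and all 45 above 0. The arrays share the 6 h rise by which the genes were picked. Over the 21 arrays of other times the median r was 0.24, and 38 of 45 were above 0. The 8 genes outside the set whose signal followed the mean standardised signal of the 10 most closely over 29 arrays were Sat1, Uck2, Abhd2, Timp1, Tsc22d1, Rnf115, Bag2 and Nifk, with r from 0.91 to 0.96. Over the 21 arrays of other times r was 0.53 for Sat1, a polyamine acetyltransferase, 0.35 for Uck2, a uridine-cytidine kinase, and -0.01 for Abhd2, a lipid hydrolase. It was 0.39 for Timp1, an inhibitor of metalloproteinases, 0.53 for Rnf115, 0.27 for Bag2 and 0.41 for Nifk. Tsc22d1, a leucine zipper protein, kept an r of 0.83 at the other times and 0.86 without rat 141. These correlations share libraries and the 6 h contrast and are descriptions.

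In the other tissues 0 of the 10 genes passed in any of the 12 comparisons in the main fit. In lung, 2 other settings gave a call, as listed with the settings at the end. The share of all genes that passed was 0.00744% in brain at 1, 3 and 6 h and 0.0298% at 24 h. It was 0.223% in kidney at 1 h, 0.104% at 3 h, 0.127% at 6 h and 0.0149% at 24 h, 0.238% in liver at 6 h, 0.298% in lung at 3 h, and 0% in lung at 24 h and at 1 week. With such shares a call among 10 genes is rare for any set, and the missing calls say little. Over brain, kidney and liver the 90 changes lay between -0.53 and 0.50, and 9 of them had an unadjusted p under 0.05, against 7.35% of all values over all genes. Kidney held 7 of the 9, out of 40, against 6.85% over all genes there.

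**Figure D4:**
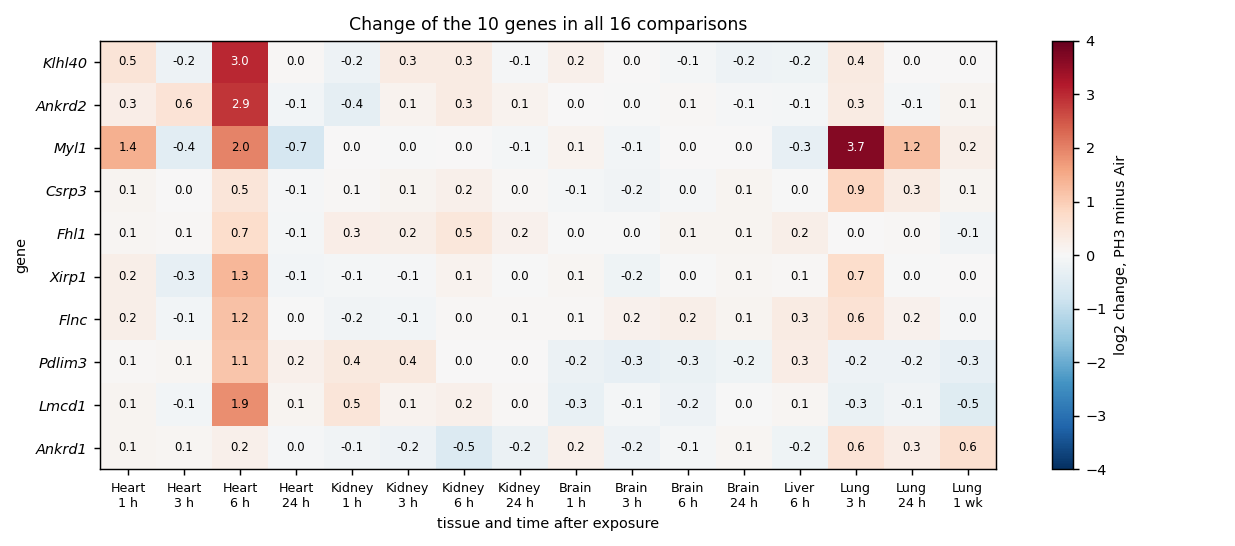
Log2 change, PH3 minus Air, of the 10 genes (rows) in the 16 comparisons of tissue and time (columns), in colour and as a number rounded to 1 decimal. The heart 6 h column holds positive values for all 10 genes, and the largest value outside it is that of Myl1 in lung at 3 h, 3.68.

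Kidney at 6 h came from the same rats as heart. Klhl40 read 4.60, 4.63, 4.51 and 4.73 there in PH3 and 4.21, 4.46, 4.44 and 4.04 in Air, a change of 0.33 ± 0.14 near background with no overlap (adjusted p = 0.537 by limma). Fhl1 read 10.06, 10.18, 9.79 and 10.57 against 9.62, 9.51, 9.77 and 9.87, a change of 0.46 ± 0.16 (adjusted p = 0.396 by limma). Rat 141 was the highest PH3 kidney for these 2 genes and the lowest for 5 of the others (Ankrd2, Myl1, Csrp3, Flnc and Lmcd1). Ankrd1 went the other way, with 4.34, 3.85, 4.22 and 4.12 in PH3 below 4.72, 4.82, 4.47 and 4.65 in Air. Its change was -0.53 ± 0.24 (adjusted p = 0.568 by limma). The share of all genes without overlap was not counted in kidney, so nothing is read from the Klhl40 and Ankrd1 patterns.

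The difference between the heart and the kidney change was tested at 1 and 3 h, since the 6 h heart contrast had chosen the genes. Myl1 at 1 h was the one gene of the 10 that passed, with a heart change larger by 1.41 ± 0.32 (adjusted p = 0.0275 by limma), where 0.201% of all genes passed at 1 h and 0.283% at 3 h. Myl1 in kidney was near background, at 3.57 to 4.03 in Air. The fit took 1 spread per gene over brain, heart and kidney, and Myl1 varied most in heart. Over all Air arrays its SD was 0.68 in heart, 0.19 in brain and 0.13 in kidney. The heart change alone did not pass at 1 h (adjusted p = 0.155 by limma). The call on the difference was lost without Air rat 96 (1.22, adjusted p = 0.0971), without Air rat 168 (1.22, adjusted p = 0.121) and without PH3 rat 115 (1.06, adjusted p = 0.0986). The other 9 genes did not pass at either time.

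In lung at 3 h, Myl1 had the largest change of any of the 10 genes in the study, 3.68 ± 1.25, with limma's adjusted p at 0.272. The PH3 lungs read 9.38, 9.70, 6.48 and 4.06 (rats 147, 148, 152 and 154) and the Air lungs 3.78 and 3.67 (rats 144 and 150). At 24 h PH3 rat 155 read 8.76, and the other lungs of 24 h and 1 week lay between 3.44 and 3.99. The high values thus sat in 4 of 21 lungs, all from PH3 rats.

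On these lungs the mean of the 10 skeletal muscle markers was 6.53 (rat 147), 6.75 (rat 148), 4.77 (rat 152) and 6.37 (rat 155), and on the other 17 it was 4.12 to 4.47. The troponin genes Tnnc2 and Tnnt3 read 10.26 and 8.30 on rat 148. Rat 147 was also the highest PH3 lung of 3 h for Csrp3 (9.52 against 7.48 to 7.80), Flnc (8.62), Xirp1 (6.63), Klhl40 (5.96), Ankrd2 (5.07) and Ankrd1 (10.87). It had the highest means of ventricular (8.37) and atrial (9.85) markers of all 21 lungs, with Myh6 at 12.43. The part of adjoining muscle or vessel tissue in these lung values was not tested.

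**Figure D5:**
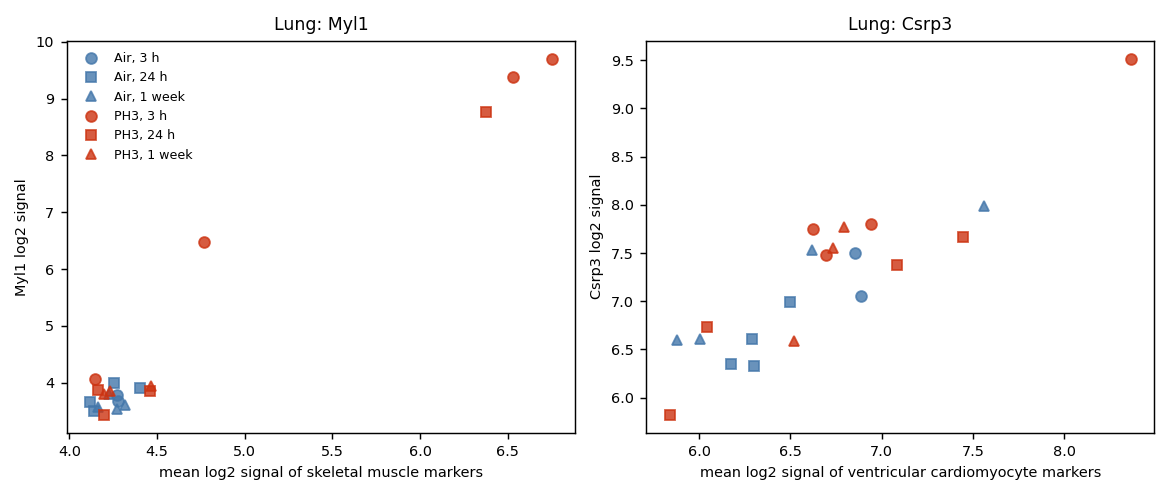
Left, log2 signal of Myl1 in each of the 21 lungs (y axis) against the mean log2 signal of 10 skeletal muscle markers (x axis). Right, Csrp3 against the mean of 9 ventricular cardiomyocyte markers. Colour is the exposure and symbol the time. The 4 lungs with Myl1 above 6 have the 4 highest skeletal marker means, and the lung with the highest Csrp3, at 9.52, has the highest ventricular mean.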

How the data were processed

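Expression was read from the deposited log2 values, which the authors made by RMA, a method of background correction, quantile normalisation and probe summary, per the labels. RMA, Affymetrix Expression Console and Partek are named without versions in the submitters' processing notes. Such values have no read depth, and their number limits the precision. The platform annotation gave 1 symbol to 19063 probe sets, several to 572 and none to 11498, and 6 named control probe sets were left out. Gene identifiers of 18983 probe sets were found among RefSeq genes of GRCr8, with 0 symbols changed.

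All arrays of a tissue entered 1 fit in limma (version 3.58.1, R 4.3.3) with a coefficient for every group, trended eBayes and Benjamini-Hochberg adjustment over 13438 genes at 0.05. The fit was tested on simulated data. Other software was data.table (version 1.17.8), Python (3.11.15) and matplotlib (3.10.9).

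The 10 genes, the lists and the tests were chosen with earlier results of these data known. From each list up to 4 genes with the smallest adjusted p among those that passed at 6 h are named, or the 2 largest changes where none passed, unless stated. Results over settings rest on array weights, filters, centring, probe set choice, arrays fitted alone, a replicate block and leaving out arrays. Leaving out Air rats 96 and 126 together, leaving out arrays outside the heart contrasts of the 10 genes, and all settings for the lists were chosen after seeing the data.

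Rat numbers in the labels mark 1 animal across tissues. Limma's consensus correlation between arrays of 1 rat, after group means were removed, was 0.00515 over all 5 tissues. Over brain, heart and kidney it was -0.00388, and the block fits paired the arrays of a rat with these values. The 6 h labels give PH3 rat 135 in brain and 134 elsewhere, taken as separate rats. Nothing in the labels ties rats to litters or exposure runs. Blood was not analysed here.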

Additional observations from a re-analysis of the deposited data

Results flagged for a closer look

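Each of the 10 genes was tested for a single array far from the rest in every group of 4 arrays in the 5 tissues. Of these 280 combinations of gene and group 26 had one, where normal values would give about 1 in 20. The 10 genes share the arrays of a group, so the combinations are not independent and no excess is read from the count. In PH3 heart at 6 h there were 3, all rat 141 as the highest, with Ankrd1 at 13.34 (next 13.18), Fhl1 at 12.52 (next 12.18) and Xirp1 at 11.64 (next 9.27). In Air heart, rat 150 was high for Ankrd2 at 3 h (4.71) and rat 107 for Flnc at 1 h (10.10).

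In PH3 lung at 3 h, rat 147 was far above the others for Ankrd2 (5.07), Csrp3 (9.52), Flnc (8.62) and Xirp1 (6.63). In PH3 lung at 24 h, rat 155 was high for Myl1 (8.76) and rat 87 low for Ankrd1 (7.41). In Air lung at 1 week, rat 178 was low for Klhl40 (4.18).

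In Air liver at 6 h, rat 132 was high for Myl1 (6.19, next 3.68), rat 126 for Csrp3 (4.03) and rat 138 for Ankrd1 (4.51, by the probe set used in liver). In brain at 6 h, Air rat 138 was low for Myl1 (3.58) and Pdlim3 (4.87), and PH3 rat 135 low for Flnc (5.21). In Air kidney, Csrp3 was high on rat 163 at 1 h (3.74) and rat 145 at 24 h (4.14), Ankrd1 was high on rat 89 at 24 h (5.10), and Myl1 was low on rat 126 at 6 h (3.69). In PH3 kidney, Pdlim3 was high on rat 122 at 3 h (5.53) and Csrp3 on rat 134 at 6 h (3.93), while Lmcd1 was low on rat 116 at 1 h (8.14) and Ankrd1 on rat 70 at 24 h (4.09).

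Changes that differed between groups were those of Myl1 in heart and kidney at 1 h, and 2 read from groups that did not overlap. The Myl1 difference was 1.41 (adjusted p = 0.0275 by limma), in the fit that took 1 spread over brain, heart and kidney. Ankrd1 was higher on every PH3 array of heart at 6 h (0.20) and lower on every one of kidney (-0.53), a difference that was not tested. In heart 4.76% of all genes had every PH3 array above every Air array at 6 h, and in kidney such shares were not counted. Myl1 was higher on every PH3 heart at 1 h (1.41) and 6 h (1.99) and lower on every one at 24 h (-0.67). In the F test of the PH3 effects at 1, 3 and 24 h Myl1 did not pass (adjusted p = 0.499 by limma). At 24 h, 12.5% of all genes had every PH3 array below every Air array.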

How the results depend on the processing

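The heart 6 h count of 10 genes was 8 to 10 when 1 array was left out, and 6 when the 8 arrays were fitted alone, a fit with fewer arrays. Over all genes 2.7% passed with all arrays and 0.997% without rat 141, and most other settings have no such share here. The genes were picked for this contrast, so these counts are a description only. Of 586 member values of heart over the settings, 29 took the other sign, 0 of them at 6 h and all without a call. Flnc at 3 h went from -0.11 to 0.19 and at 24 h from -0.02 to 0.17 with the mean of its probe sets, and Ankrd1 at 24 h from -0.03 to 0.04 with centred arrays and 0.06 with mean probe sets. The 24 h median moved from -0.04 by more than the spread in 5 of 12 settings, to between -0.00254 and 0.03. Xirp1 missed the threshold in 9 of 16 settings and Ankrd1 in 8 of 16, with 6 h changes of 0.67 to 1.62 and 0.16 to 0.29. Klhl40, Csrp3 and Flnc each missed it in 1 of 16. The fit of all 5 tissues with the rat as a replicate block ended the 6 h calls of Csrp3 (0.48, adjusted p = 0.293) and Ankrd1 (0.20, adjusted p = 0.919), both by limma. It changed no other member call in heart. That fit also pooled the spread over tissues. In Air lungs the SD was 1.00 for Ankrd1 and 0.56 for Csrp3, against 0.07 and 0.10 in Air hearts. Which part of the setting ended the calls was not tested. In that fit 1 of the 10 genes passed in lung, and with array weights 1 did, against 0. The share of all genes that passed in lung under these settings is not given here, so nothing is read from these calls. At 1, 3 and 24 h 0 genes passed in all 43 settings, in brain, kidney and liver in all 84, and in the F test in all 22. The heart minus kidney count of 1 was 0 to 1 when 1 heart was left out, with Air rats 96 and 168 and PH3 rat 115 each ending it. The 5 lists held 13 calls at 6 h with array weights, and 5 to 9 when 1 array was left out, against 8. The causes were not tested. Ankrd2 in Air hearts read near background and Ankrd1 near the top of the scale, and whether this limited their changes was not tested. With 2 to 4 arrays a group, precision is set by the number of rats.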
